A study of Danio rerio with 10 samples.

Results

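Whole earl grey (egy) mutant zebrafish embryos collected on day 5 were compared with normal siblings collected on day 3. The comparison asks which genes of the older mutants lie at, above or below the level of younger normal embryos. It uses 5 of the 10 RNA pools of the series, chosen by their titles: 3 pools of day 5 egy mutants and 2 pools of day 3 siblings. All embryos came from matings of fish heterozygous for the egy allele cz3 in the AB/WIK background, were raised at 28 °C, and were told apart as mutants and siblings by their morphology. The day 5 mutants were collected at 120 hours post fertilization and the day 3 siblings at 72 hours. The siblings were sorted only by their normal appearance and may therefore include heterozygous carriers. The other 5 pools, 2 of day 3 mutants and 3 of day 5 siblings, are set beside the comparison where they help to read it. Genotype and age both differ between the 2 groups compared, so their contributions to a difference cannot be told apart by this comparison alone. Pools were labelled as biological replicates, and each was hybridised to 1 Affymetrix zebrafish array.

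The egy gene encodes Sart3, also called p110, a protein that helps to rejoin the U4 and U6 small nuclear ribonucleoproteins (snRNPs) after each round of splicing. These particles enter the spliceosome together with U5 as a tri-snRNP, their RNAs are pulled apart during activation, and they have to be reassembled before they can be used again. In normal zebrafish, the days between these 2 collections are those in which the retina, the gut, the liver and the exocrine pancreas take on their working state and the larva begins to feed.

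Signals are the linear MAS5 intensities deposited by the authors. All 10 arrays had been scaled to nearly the same trimmed mean, from 1500.35 to 1500.42. Differences are given as log2(signal + 65), a scale that understates changes of dim genes, with the standard error of a limma fit over all 10 arrays. The number of arrays, 3 against 2, limits the precision. Spearman correlation over the tested probe sets was 0.957 to 0.961 between day 5 mutant pools and 0.983 between the day 3 sibling pools, against 0.900 to 0.929 between the groups. Day 5 mutant pools 1 and 2 correlated at 0.916 to 0.935 with day 5 sibling pools, and pool 3 at 0.946 to 0.958, close to its 0.957 and 0.960 with the other mutant pools. The 3′ to 5′ log2 ratio of the actin control was 1.96 to 2.58 on the day 5 mutant arrays and 0.815 to 1.17 on the day 3 sibling arrays, whereas that of the GAPDH control was 0.388 to 0.584 on the mutant arrays and 0.768 to 0.905 on the sibling arrays. On the day 5 sibling arrays the actin ratio was 2.397 to 3.204 and the GAPDH ratio 0.345 to 0.493. On the day 3 mutant arrays these ratios were 0.830 to 1.140 and 0.748 to 0.909. Both ratios thus separated the arrays by collection day, and mutants and siblings of the same day overlapped. The part of RNA quality in the results was not tested. Markers of muscle (actc1b, ckma), skin (krt4), blood (hbae3), lens (crybb1) and cartilage (col2a1a) were bright on all 10 arrays, as the label of whole embryos implies. A second lens marker (cryaa) had 550.3 to 1403 signal units, and a second blood marker (hbbe3) only 39.7 to 658.4. Markers of heart (myl7) and neurons (elavl3) had 1970.2 to 4439.4 and 2769.7 to 7660.1. Those of pancreas (prss1), liver (fabp10a) and intestine (fabp2) ranged widely, with 695.5 to 28093.7, 374.2 to 7581.1 and 1284.8 to 13503.7. The rod marker rho and the lens marker crygn2 were not listed in the annotation and were not examined.

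Some labels conflict. The strain entry of day 3 sibling pool 2 reads mutant, and the source entries of day 5 mutant pool 3 and day 5 sibling pool 2 read day 4. The design text names days 3 and 4, and the titles name days 3 and 5. The descriptions of all pools, those of mutants included, read wt (wild type). Groups were taken from the titles. Mean sart3 signal was 555.3 in the day 3 mutant pools, against 2526 and 2516 in day 3 sibling pools 1 and 2. Day 5 mutant pool 3 stood apart from the other 2 mutant pools in its likeness to day 5 siblings. It also did so at sart3, the opsin gene opn1sw1, pancreas genes and the liver gene fabp10a, where values without it are given.

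Sart3 was lower in every mutant pool. The sart3 probe set had signals of 105, 132 and 809 in day 5 mutants, against 2526 and 2516 in day 3 siblings. The difference was −3.07 ± 0.51 on the log2 scale (limma, adjusted p = 0.0011), and the groups did not overlap. Without mutant pool 3, which had the most sart3 of the mutant pools, the difference was −3.82 (adjusted p = 9.3e-07). It passed the test under each of the alternatives tried. Day 5 siblings had a mean of 2131.

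Of 11626 probe sets tested, 3236 (27.8%) differed at an adjusted p under 0.05. Of these, 1393 (12.0%) were higher and 1843 (15.9%) lower in day 5 mutants. Differences past 2-fold were fewer, 204 higher (1.75%) and 365 lower (3.14%). Conversely, 9695 probe sets (83.4%) lay within 2-fold of day 3 siblings by a pair of one-sided tests. A probe set can belong to both classes, and 1721 (14.8%) differed by a small amount that was nevertheless shown to be under 2-fold. Neither statement could be made for 416 (3.58%). The arrays of the groups did not overlap for 2707 probe sets with mutants above (23.3%) and 3410 with mutants below (29.3%), so that separation of the pools alone marks no gene out. With 1 probe set per gene, 1038 of 7287 genes were higher (14.2%), 1037 lower (14.2%) and 6175 within 2-fold (84.7%). These shares are the background for the gene lists below. In the comparisons set beside this one, 18.5% of probe sets were called between day 5 and day 3 siblings (8.39% higher and 10.1% lower on day 5), 14.6% between day 5 mutants and day 5 siblings (6.49% higher and 8.15% lower in mutants), and 2.06% between day 3 mutants and day 3 siblings (1.18% higher and 0.886% lower in mutants).

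The balance of directions depended on the scaling. The share of called probe sets that were higher was 43.0% as deposited, 49.4% after quantile normalization and 56.1% after centring each array on its median. The median difference over all probe sets was −0.04, 0.01 and 0.05 on the log2 scale under these scalings. Without day 3 sibling pool 1 the count of called probe sets was 1694, and without pool 2 it was 1315. With pool 2 counted as a day 3 mutant, as its strain entry reads, which leaves pool 1 as the only day 3 sibling pool, it was 988. Where 1 sibling pool is left, its variation is assumed to be that of the other groups.

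**Figure D1:**
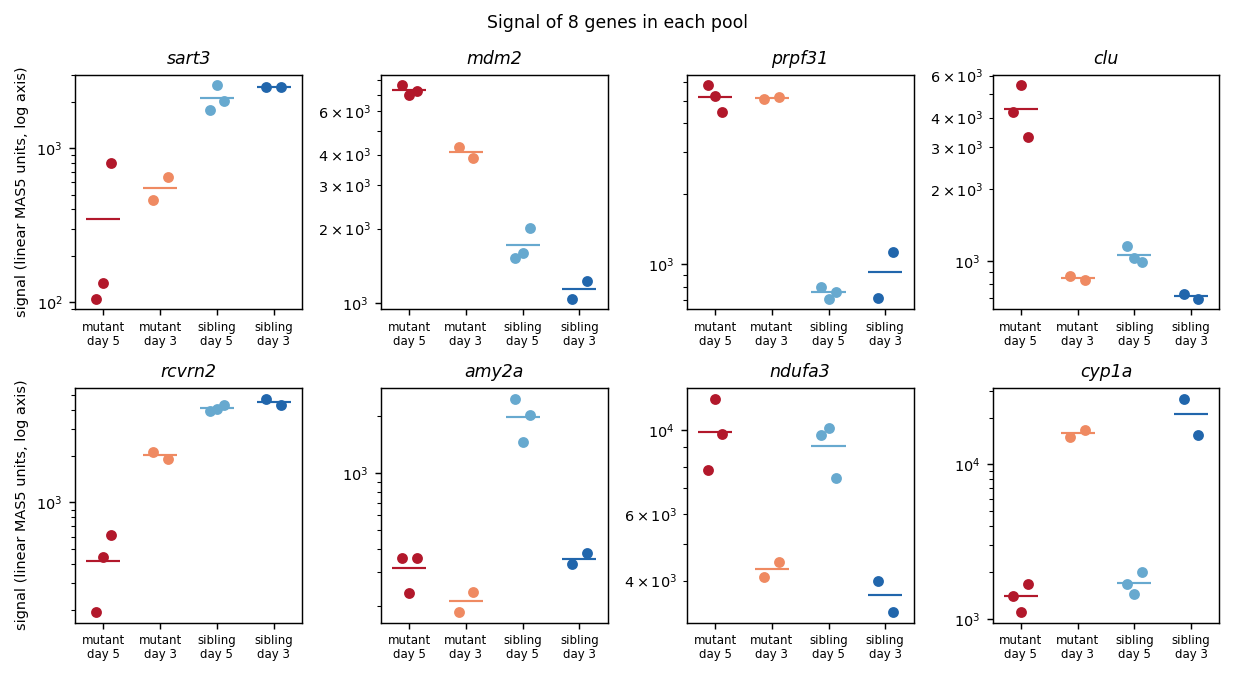
Signal (linear MAS5 units, log axis) of 8 genes in each pool, by group, with the group mean as a bar. In day 5 mutants sart3 and rcvrn2 lay below day 3 siblings, mdm2, prpf31 and clu above, amy2a at their level, and ndufa3 and cyp1a near day 5 siblings.

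Genes with the largest excess in day 5 mutants included several of RNA processing and of stress programmes. Of the 15 highest, 14 passed the test under every setting in which they were tested; lsm8 failed it with day 3 sibling pool 2 counted as a mutant. The most extreme was ice1, which encodes a scaffold of the little elongation complex, a complex that acts in the transcription of small nuclear RNA genes. It had 2079, 3257 and 1819 signal units in day 5 mutants, against 232 and 400 in day 3 siblings (2.68 ± 0.32, adjusted p = 0.00013). Genes of this ranking were chosen among those whose pools did not overlap, so the separation of the pools followed from the choice. The list also held ecd (2.41 ± 0.17), whose human product binds the splicing factor PRPF8, and uspl1 (2.33 ± 0.20), whose human product is a SUMO protease of Cajal bodies. A further member was frg1 (2.27 ± 0.20), which encodes a nuclear protein found with spliceosomes, and wdsub1 stood at 2.01 ± 0.22. None of these 5 passed the test for a change between day 3 and day 5 siblings, where their differences lay between −0.47 and 0.47.

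The list of the U4/U6.U5 tri-snRNP had 19 of 20 genes bright enough to test. Of them 12 were higher in day 5 mutants than in day 3 siblings, 2 were lower and 9 were within 2-fold. The list median was 0.46 on the log2 scale, against −0.0018 for all genes. Prpf31, which bridges U4/U6 and U5, had 5816, 5244 and 4469 signal units in day 5 mutants, against 719 and 1126 in day 3 siblings. That is 2.43 ± 0.17 (adjusted p = 3.8e-06). Its mean was 759 in day 5 siblings and 5116 in day 3 mutants. The U5 GTPase gene eftud2 was higher by 1.93 ± 0.16, the U4/U6 protein gene prpf3 by 1.83 ± 0.24 and the tri-snRNP protein gene snrnp27 by 1.5 ± 0.16. The lower members were sart3 itself and smu1a (−0.56 ± 0.14), which encodes a factor of spliceosome activation. Smu1a lost its call without either day 3 sibling pool. Txnl4a, the small U5 protein gene also known as Dim1, stayed at 3180, 3176 and 2490 in day 5 mutants beside 2696 and 2946 in day 3 siblings, within 2-fold. The excess was uneven within the particle.

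The Sm and LSm list, which covers the protein rings that clasp spliceosomal RNAs and the SMN complex that loads them, had 12 of 19 tested genes higher, 1 lower and 9 within 2-fold, with a median of 0.85. The 4 genes named for the largest excess encode ring proteins. Lsm7, of the ring on U6, had 23885, 31108 and 14810 signal units in day 5 mutants, against 4469 and 5745 in day 3 siblings (2.12 ± 0.24, adjusted p = 7.7e-05). The Sm core gene snrpd3 was higher by 2.26 ± 0.25, the U6 ring gene lsm8 by 2.04 ± 0.15 and the Sm core gene snrpe by 1.83 ± 0.17. Smn1 and gemin2, of the loading complex, were named among members within 2-fold or not called. Their smaller differences therefore followed from the choice, and the rings and the loading complex were not compared as groups. Smn1 was higher by 0.61 ± 0.17 and gemin2 by 0.52 ± 0.15, both within 2-fold. Both lost their calls without day 3 sibling pool 2 and without the 2 pools labelled day 4, and gemin2 also without day 3 sibling pool 1. Smx5, an LSm gene, was the lower member (−0.34 ± 0.10), a call it lost after median centring, without day 5 mutant pool 1 and without either day 3 sibling pool. For lsm7 and snrpd3, mutant pool 3 was the lowest of the mutant pools, yet above both sibling pools.

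Lists of later and earlier splicing steps showed smaller medians. Of 24 U1 and U2 genes, 10 were higher, 2 lower and 15 within 2-fold, with a median of 0.26. The U2 genes htatsf1 (1.93 ± 0.23), sf3a2 (1.78 ± 0.18) and sf3b2 (1.24 ± 0.16) led. Sf1, which recognises the branch point before U2 arrives, went the other way, with 2828, 3778 and 4119 in day 5 mutants against 6436 and 8136 in day 3 siblings (−1.02 ± 0.17, adjusted p = 0.00095). Sf1 was also lower in day 5 than in day 3 siblings (−1.17). The other lower gene, puf60b (−0.31), lost its call without mutant pool 1 or 2 or either day 3 sibling pool. Of 22 genes of the PRP19 complex and the catalytic steps, 10 were higher and none lower, with a median of 0.27. Without day 3 sibling pool 1, 5 of them were higher. Isy1 (1.6 ± 0.33), xab2 (1.45 ± 0.21) and crnkl1 (1.28 ± 0.20), all of the PRP19-associated machinery, led, and isy1 lost its call without day 3 sibling pool 1. Prpf19 itself did not pass the test (0.33 ± 0.12, adjusted p = 0.058), but passed it without mutant pool 3 (0.45, adjusted p = 0.0086).

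With day 3 sibling pool 2 counted as a day 3 mutant, the higher counts were 4 for the tri-snRNP, 3 for the Sm and LSm rings, 0 for U1 and U2 and 3 for the PRP19 list. Medians under that setting were 0.47, 0.93, 0.28 and 0.32. In day 5 siblings, the same 4 lists had medians of −0.25, −0.31, −0.27 and −0.22 against day 3 siblings. The first set of medians rests on day 3 sibling pool 1 alone and the second on both day 3 sibling pools, and the 2 sets share pool 1.

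**Figure D2:**
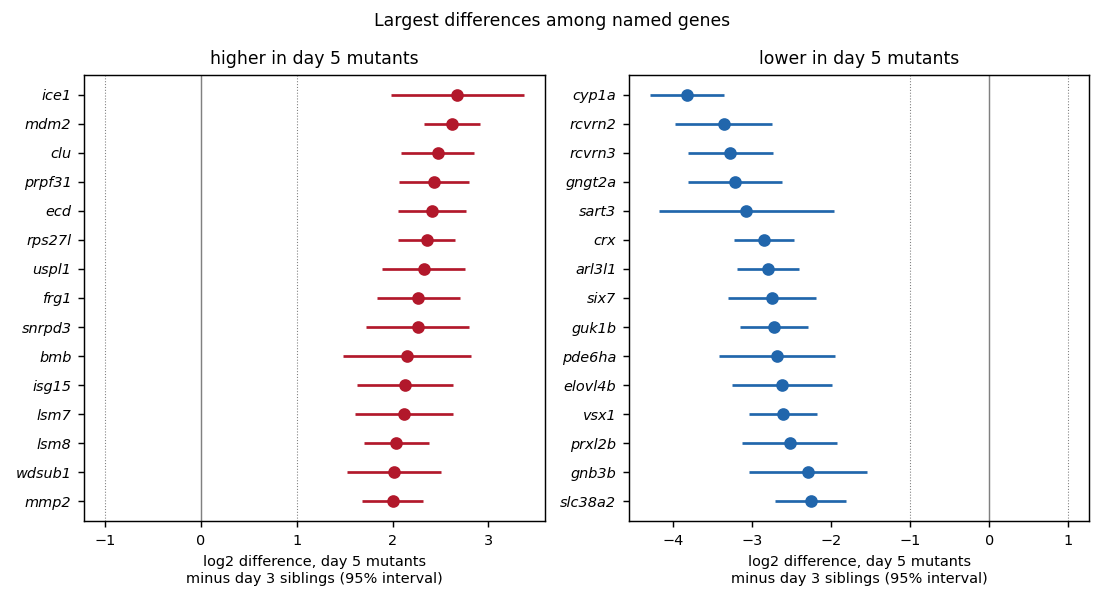
Log2 difference, day 5 mutants minus day 3 siblings, of the 15 named genes with the largest excess (left) and of the 15 with the largest deficit (right), with 95% intervals; dotted lines mark 2-fold. All intervals lie beyond the 2-fold lines, ice1 leads on the left at 2.68 and cyp1a on the right at −3.82.

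The next list joined targets of p53, the transcription factor that answers to DNA damage and other stress, with apoptosis genes such as casp8, casp9 and apaf1 that are not all p53 targets. Of its 30 tested genes, 14 were higher, 3 lower and 14 within 2-fold, with a median of 0.24. Mdm2, the ubiquitin ligase that p53 induces and that restrains it, had 7652, 6982 and 7276 signal units in day 5 mutants, against 1040 and 1227 in day 3 siblings (2.62 ± 0.13, adjusted p = 1.1e-06). It had 1710 on average in day 5 siblings. The mutant pools agreed closely, pool 3 included. Rps27l, a p53-induced relative of a ribosomal protein, was higher by 2.35 ± 0.14. The cell survival gene mcl1b was higher by 1.78 ± 0.22, and day 5 siblings exceeded day 3 siblings by 1.72 at the same gene. Lower members were the p53 regulator mdm4 (−0.93 ± 0.14) and the DNA damage recognition genes ddb2 (−1.45 ± 0.28) and xpc (−1.06 ± 0.22). Ddb2 had 168, 448 and 270 in day 5 mutants, against 884 and 854 in day 3 siblings, and the day 5 sibling mean was 305. Xpc lost its call without day 3 sibling pool 2. The p53 targets tp53inp1 and btg2 were within 2-fold and not called (0.25 ± 0.14 and 0.15 ± 0.34).

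Genes of interferon response and antigen presentation were also higher, 9 of 14 tested with none lower, and a median of 0.72. The median in day 5 siblings was 0.04. Isg15, a ubiquitin-like protein induced by interferon that the p53 and apoptosis list also holds, had 972, 1055 and 622 signal units in day 5 mutants, against 136 and 159 in day 3 siblings (2.13 ± 0.23, adjusted p = 7.4e-05). Both sibling signals lay under the filter limit of 231.9, and the day 5 mutant signals alone were enough for isg15 to pass it. Stat3, a transcription factor of cytokine signalling, was higher by 1.71 ± 0.17, and its feedback inhibitor socs3b by 1.52 ± 0.17. Irf9 followed at 0.93 ± 0.24 but lost its call without either day 3 sibling pool. The higher count was 5 without day 3 sibling pool 1 and 4 without pool 2.

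Single genes of injury and stress stood out beside these lists. Clusterin (clu), a secreted chaperone, had 4235, 5466 and 3320 signal units in day 5 mutants, against 730 and 698 in day 3 siblings (2.47 ± 0.17, adjusted p = 4.5e-06). In day 3 mutants clu was not called against day 3 siblings (0.23, adjusted p = 0.65), whereas prpf31 was (2.42, adjusted p = 6.1e-05). No test of a difference in the mutant effect between the days passed for any of the 11626 probe sets (limma, 771 at an unadjusted p under 0.05). Mmp2, a matrix metalloproteinase, had 20122, 20384 and 14131 in day 5 mutants, against 4509 and 4371 in day 3 siblings (2.00 ± 0.15). The collagen chaperone gene serpinh1b was higher by 1.49 ± 0.16 and the stress transcription factor gene atf3 by 1.13 ± 0.27, although atf3 lost its call without day 3 sibling pool 1. Of 37 heat shock and folding genes, 6 were higher and 7 lower, beside the 14.2% of all genes in each direction. Without day 3 sibling pool 1, 2 of them were higher, and without pool 2, 3 were lower. Calr3b (−1.45 ± 0.23) and atf4b (−1.26 ± 0.22) were among the lower, and day 5 siblings also had less of both than day 3 siblings (−0.93 and −0.81).

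Photoreceptor genes had the lowest median of the 43 lists. Of 38 on the array, 30 were bright enough to test, and 26 were lower, 1 higher and 4 within 2-fold, with a median of −1.63. The median in day 5 siblings was 0.42 against the same day 3 pools. In whole-embryo pools, fewer cells of a type and less RNA per cell cannot be told apart. Recoverin 2 (rcvrn2), a calcium sensor of phototransduction, had 194, 443 and 618 signal units in day 5 mutants, against 4748 and 4323 in day 3 siblings. That is −3.36 ± 0.28 (adjusted p = 1.6e-05). Day 5 siblings had a mean of 4121. Rcvrn3 was lower by a similar amount (−3.27 ± 0.25). Crx, the homeobox gene that drives photoreceptor differentiation, had 526, 822 and 536 in day 5 mutants, against 4510 and 5167 in day 3 siblings (−2.85 ± 0.17, adjusted p = 2.4e-06).

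The photoreceptor list held 11 tested genes of transducin and phosphodiesterase, the enzymes that pass on the light signal, grouped here after their values were seen. Of these, 10 were lower and gnb1a was not called. The cone transducin gamma gene gngt2a had 89.2, 163 and 247 signal units in day 5 mutants, against 2147 and 1864 in day 3 siblings (−3.22 ± 0.27). Its beta partner gnb3b was lower by −2.29 ± 0.34 and the cone phosphodiesterase inhibitor pde6ha by −2.68 ± 0.34. In both, mutant pool 3 had the most, 3224 and 3068, yet stayed far under the day 3 sibling pools, which lay between 9221 and 12258. The cone transducin alpha gene gnat2 was lower by −1.49 ± 0.40, its gamma gene gngt2b by −1.77 ± 0.40, the catalytic phosphodiesterase gene pde6c by −1.68 ± 0.27 and the inhibitor gene pde6hb by −1.51 ± 0.34. Gnat2 lost its call without either day 3 sibling pool, as did gnb1b, and gngt2b and pde6hb lost theirs without day 3 sibling pool 1. All 4 tested opsin genes were lower, from −1.93 to −0.98, but none was called without day 3 sibling pool 1, and without pool 2 only opn1mw2 was. Without mutant pool 1 the differences were smaller, −0.83 for opn1mw1, against −1.46 with it, and −1.02 for opn1sw2, against −1.68. Opn1mw1 also lost its call without mutant pool 2. The ultraviolet cone opsin opn1sw1, singled out after its values were seen, had 4438, 10344 and 26305 in day 5 mutants, against 44259 and 37824 in day 3 siblings (−1.93 ± 0.48, adjusted p = 0.011). Its mutant pools spread widely, and pool 3 was the highest. The difference was −2.58 without pool 3 and −1.31 without pool 1, and the call was lost without either day 3 sibling pool. Other genes among the 15 with the largest deficits, chosen for that, are outside the photoreceptor list. Arl3l1, related to a small GTPase of ciliary traffic, was at −2.80 ± 0.18, the guanylate kinase gene guk1b at −2.73 ± 0.20 and the fatty acid elongase gene elovl4b at −2.62 ± 0.29.

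The member that was higher was rpe65a, the retinoid isomerase of the pigment epithelium that lies behind the photoreceptors. It had 9353, 10926 and 8307 signal units in day 5 mutants, against 5317 and 4028 in day 3 siblings (1.02 ± 0.15, adjusted p = 0.00046). Day 5 siblings also exceeded day 3 siblings (0.64). The widely expressed G protein beta gene gnb1a was itself within 2-fold (−0.01 ± 0.18). Among the photoreceptor genes, the lower count was 18 without day 3 sibling pool 1, 21 without pool 2, 13 with pool 2 counted as a mutant and 26 without mutant pool 3. The median without mutant pool 3 was −1.98. Day 3 mutants had a list median of −1.17 against day 3 siblings.

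The list named for retinal and neural progenitors, which also holds genes of differentiating cells, had 23 of 45 tested genes lower. Of the others, 3 were called higher, and 27 of all 45 were within 2-fold, with a median of −0.45. Six7, a transcription factor of cone identity, had 42.3, 118 and 140 signal units in day 5 mutants, against 1124 and 890 in day 3 siblings (−2.74 ± 0.26, adjusted p = 2.9e-05). Vsx1, of bipolar interneurons and their precursors, was at −2.60 ± 0.20 and six6b, an eye field gene, at −1.57 ± 0.25. The Notch target her4.2 was at −1.83 ± 0.21, and it was also lower in day 5 than in day 3 siblings (−1.02). Some genes of the list did not share this. The radial glia lipid carrier gene fabp7a (−0.27 ± 0.12) and stmn1b (−0.02 ± 0.10) were within 2-fold and not called. The Notch-related gene her9 was higher by 0.45 ± 0.12, a call lost without the 2 pools labelled day 4 and without either day 3 sibling pool. None of the list was higher without either sibling pool.

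Of 40 genes of differentiated neurons and synapses, 15 were lower, 4 higher and 30 within 2-fold, with a median of −0.30. Neurod1, a transcription factor shared by photoreceptors, neurons and endocrine cells, had 1232, 1581 and 1235 signal units in day 5 mutants, against 4618 and 5244 in day 3 siblings (−1.83 ± 0.13, adjusted p = 5.1e-06). Isl1a, of motor, sensory and retinal neurons, was at −1.30 ± 0.12, and the calcium buffer gene calb2b at −0.94 ± 0.13. The abundant synaptic genes sncb (−0.16 ± 0.10) and syt1a (−0.33 ± 0.12) were within 2-fold and not called. Pvalb7, a parvalbumin gene, was above day 3 siblings, with 2828, 2756 and 3911 in day 5 mutants against 1766 and 1685 in day 3 siblings (0.83 ± 0.15, adjusted p = 0.0017). Day 5 siblings averaged 5146. The lower count of neuronal genes was 6 without day 3 sibling pool 1, 8 without pool 2, 10 without mutant pool 2, and 10 after median centring. The higher count was 1 without either day 3 sibling pool.

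**Figure D3:**
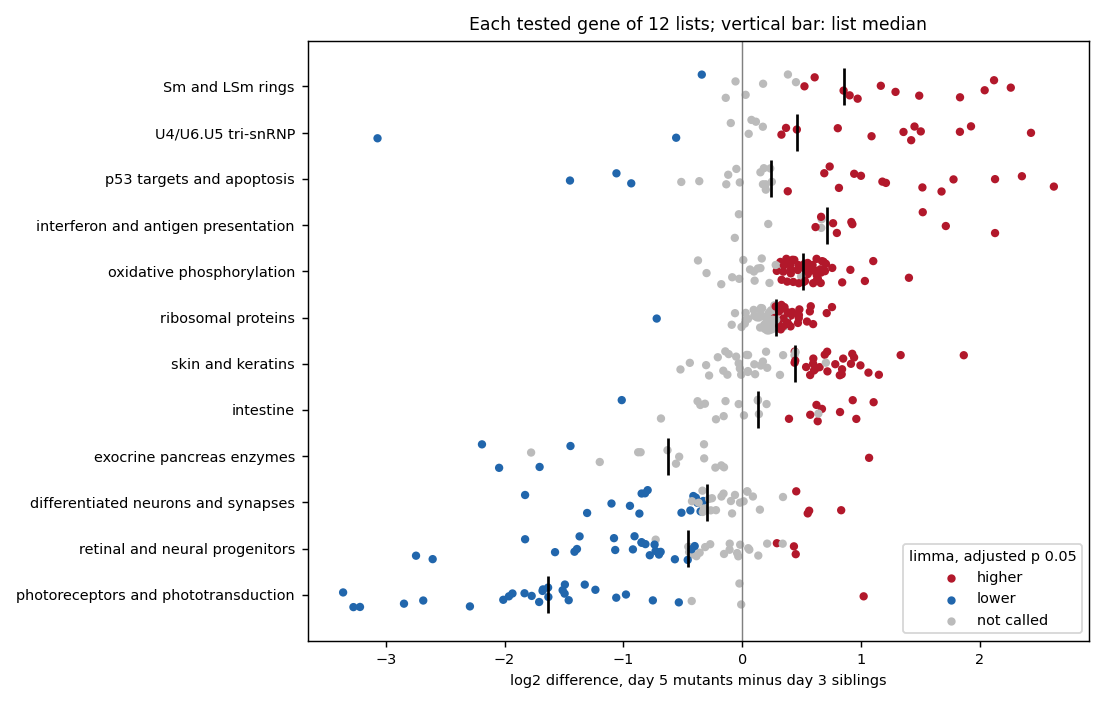
Log2 difference, day 5 mutants minus day 3 siblings, of each tested gene of 12 lists, coloured by the limma call; the black bar is the list median. Medians run from 0.85 for the Sm and LSm rings to −1.63 for photoreceptor genes, and within most lists some genes were not called.

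Several digestive genes of day 5 mutants lay at the level of day 3 siblings, while those of day 5 siblings were far above. The rule for naming genes picked, among those within 2-fold, the 10 with the largest increase between day 3 and day 5 siblings. Their sibling change is therefore a description. They were amy2a, chia.1, sycn.2, si, alpi.2, ctrb.2, cell, grna.1, fabp2 and mep1a.1, most of them pancreatic or intestinal. Pancreatic amylase (amy2a) had 358, 235 and 356 signal units in day 5 mutants and 331 and 378 in day 3 siblings, with a difference of −0.15 ± 0.23. The groups overlapped. Day 5 siblings had a mean of 1990. Amy2a was dim in both groups, near the filter limit of 231.9, and so were intestinal brush border enzyme genes. That limits what a match can show. Sucrase-isomaltase (si), which was under the filter limit of 231.9 on all 5 arrays compared and was tested only through its level in day 5 siblings, had 134, 126 and 204 in day 5 mutants and 87.7 and 191 in day 3 siblings (0.13 ± 0.30), with 660 in day 5 siblings. Alkaline phosphatase (alpi.2) had 206, 170 and 335 in day 5 mutants and 238 and 215 in day 3 siblings (0.02 ± 0.24), with 938 in day 5 siblings. Fabp2, the intestinal fatty acid binding protein gene, had 2030, 3016 and 3554 in day 5 mutants and 3910 and 3394 in day 3 siblings (−0.38 ± 0.25), with 10509 in day 5 siblings. Mutant pool 3 was the highest of the mutant pools for chia.1, si, alpi.2 and fabp2. Only grna.1 of the 10 was called (0.61 ± 0.17), and it lost the call without either day 3 sibling pool.

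The exocrine pancreas list was split. Of 17 enzyme genes tested, 4 were lower than in day 3 siblings, 1 was higher, 4 were within 2-fold and 8 were neither called nor within 2-fold, with a median of −0.63. With a pseudocount of 50% of the median signal, 9 were within 2-fold. In day 5 siblings 15 of the 17 were higher than in day 3 siblings, with a median of 2.27. Trypsin (prss1) had 1433, 896 and 4586 signal units in day 5 mutants, against 5970 and 4299 in day 3 siblings (−1.44 ± 0.47, adjusted p = 0.037), and 23492 on average in day 5 siblings. Mutant pool 3 lay between the 2 day 3 sibling pools, so the groups overlapped. The bile salt lipase gene cel.1 had 16.7, 31.0 and 445 in day 5 mutants, against 773 and 561 in day 3 siblings (−2.19 ± 0.58, adjusted p = 0.015). Pdia2, a disulphide isomerase of acinar cells, was at −1.70 ± 0.34. Prss1 lost its call without mutant pool 1, mutant pool 2 or either sibling pool, and cel.1 without either sibling pool. Without mutant pool 3, 12 of the 17 enzymes were lower and the median was −1.09, with prss1 at −2.10 and cel.1 at −3.03. The median was −0.41 without mutant pool 2, −0.37 without day 3 sibling pool 1 and −1.06 without day 3 sibling pool 2. The lower count was 2 without mutant pool 1 or mutant pool 2 and 1 without either sibling pool.

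The intestine list was mixed. Of 24 genes tested, 9 were higher in day 5 mutants than in day 3 siblings, 1 was lower and 15 were within 2-fold, with a median of 0.14. In day 5 siblings 17 were higher, with a median of 0.78. The retinol binding gene rbp2a had 8394, 11854 and 9199 signal units in day 5 mutants, against 5178 and 4951 in day 3 siblings (0.93 ± 0.16, adjusted p = 0.0013), and the day 5 sibling mean was 14201. Plac8.1 was the lower member (−1.01 ± 0.26), a call lost without day 3 sibling pool 1. The higher count fell to 3 and 4 without day 3 sibling pools 1 and 2.

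The liver list held both patterns. Of 51 tested genes, 17 were higher, 3 lower and 40 within 2-fold, and the median was 0.13. In day 5 siblings 22 were higher, with a median of 0.33. The complement gene c9 had 4914, 5677 and 3500 signal units in day 5 mutants, against 2267 and 2263 in day 3 siblings (1.0 ± 0.17, adjusted p = 0.0013), and 3952 on average in day 5 siblings. The liver fatty acid binding protein gene fabp10a, a defining hepatocyte marker, had 374, 547 and 1637 in day 5 mutants, against 1644 and 1202 in day 3 siblings. It was not called (−0.93 ± 0.40, adjusted p = 0.10), and its day 5 sibling mean was 6719. Without mutant pool 3 it was called lower (−1.51, adjusted p = 0.00028). Prox1a, a transcription factor of early liver and of other organs, was at −0.85 ± 0.20, and lost its call without day 3 sibling pool 2. The higher count of liver genes was 8 and 9 without day 3 sibling pools 1 and 2, and 11 after quantile normalization. The lower count was 5 without mutant pool 3 and 0 without day 3 sibling pool 2.

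The converse pattern, genes within 2-fold in day 5 mutants that had declined between the sibling days, gave irg1l, fkbp9, crabp2a, abcf2a, gsdf, atp6ap1b, hccsb, sap30bp, col9a3 and dnd1. These too were picked for their sibling change. Sap30bp, a gene of transcriptional regulation, had 3860, 3259 and 3204 signal units in day 5 mutants and 2564 and 2867 in day 3 siblings (0.33 ± 0.18), with a day 5 sibling mean of 1328. The cartilage collagen gene col9a3 had 11509, 12014 and 8327 in day 5 mutants, against 16260 and 18076 in day 3 siblings (−0.71 ± 0.15, adjusted p = 0.0038), and 8449 in day 5 siblings. It was lower, but shown to be under 2-fold, and it lost its call without day 3 sibling pool 2. Of the 10 genes, fkbp9 (−0.59 ± 0.16), crabp2a (−0.63 ± 0.19), abcf2a (−0.64 ± 0.14) and atp6ap1b (−0.67 ± 0.15) were also lower, and hccsb was higher (0.60 ± 0.21), so 6 differed from day 3 siblings by under 2-fold. All 4 lower genes lost their calls without day 3 sibling pool 2, and hccsb was called under 10 of 22 alternatives. Irg1l, an immune-responsive gene of skin and macrophages in zebrafish, had 2810, 2376 and 1387 in day 5 mutants and 1707 and 3898 in day 3 siblings, with overlap (−0.29 ± 0.34), and 660 in day 5 siblings.

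**Figure D4:**
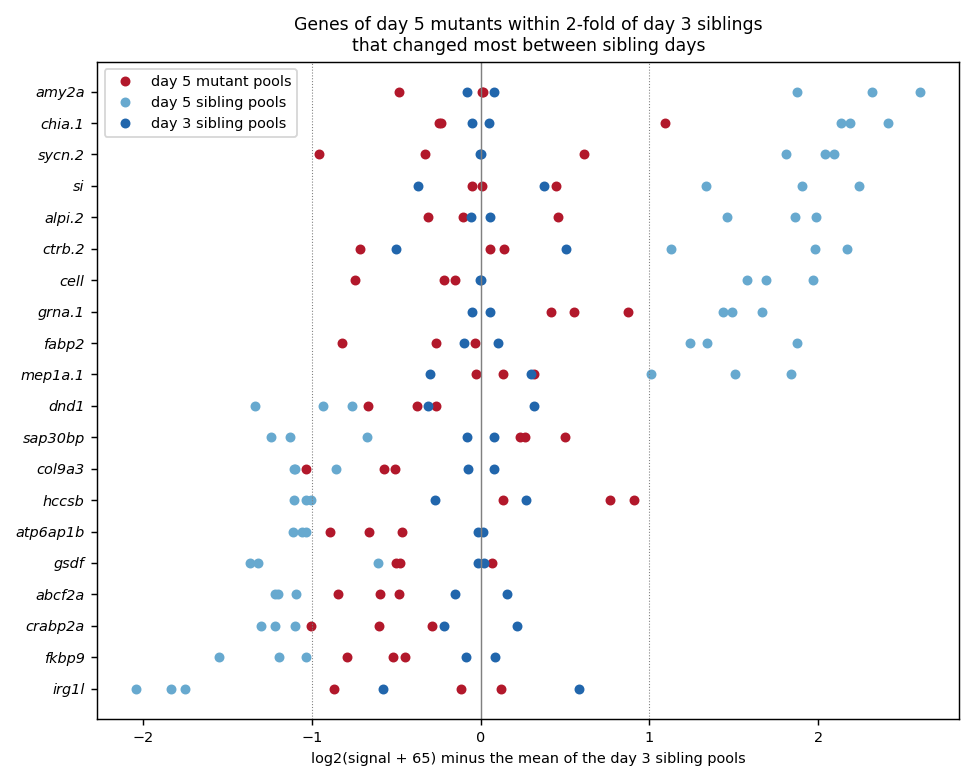
Log2(signal + 65) of each pool minus the mean of the day 3 sibling pools for the 20 genes picked as within 2-fold; dotted lines mark 2-fold. For amy2a to mep1a.1, picked for a rise, day 5 sibling pools lie to the right. The mutant pools of these genes lie nearer to 0, since all were picked as within 2-fold, although grna.1 was called higher. For the other genes, picked for a decline, day 5 sibling pools lie to the left.

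A last set of genes moved away from day 3 siblings in day 5 mutants and also in day 5 siblings. Here and wherever day 5 sibling differences are set beside, both differences subtract the same day 3 sibling pools and are not independent. The sharpest case was cyp1a, the xenobiotic-metabolising cytochrome induced through the aryl hydrocarbon receptor. It had 1403, 1110 and 1679 signal units in day 5 mutants, against 26658 and 15493 in day 3 siblings (−3.82 ± 0.22, adjusted p = 1.4e-06). Day 5 siblings averaged 1709, a difference of −3.53 from day 3 siblings. Its relative cyp1c1 was at −1.95 ± 0.36 in day 5 mutants and at −1.88 in day 5 siblings. Prxl2b, a prostaglandin synthase gene, was at −2.52 ± 0.28 and −2.06. The antioxidant regulator gene nfe2l2a was higher, by 1.45 ± 0.20 in day 5 mutants and by 1.21 in day 5 siblings.

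Oxidative phosphorylation genes, which encode the mitochondrial respiratory chain and ATP synthase, were largely above day 3 siblings. Of 69 tested, 53 were higher in day 5 mutants, none lower and 63 within 2-fold, with a median of 0.51. Their median in day 5 siblings was 0.35. The complex I gene ndufa3 had 7821, 12098 and 9720 signal units in day 5 mutants, against 3999 and 3306 in day 3 siblings (1.4 ± 0.18, adjusted p = 0.00017), and 9086 on average in day 5 siblings. Ndufa2 (1.1 ± 0.14), ndufa12 (1.03 ± 0.14) and ndufc2 (0.91 ± 0.12), of the same complex, followed. These complex I genes were named for the largest differences. The ATP synthase genes atp5mc3b (0.42 ± 0.11) and atp5f1b (0.35 ± 0.11) were named among the brightest members within 2-fold or not called. Their smaller differences followed from that choice, and the complexes were not compared as groups. Atp5mc3b lost its call without day 3 sibling pool 2, and atp5f1b without mutant pool 2 or 3 or either day 3 sibling pool. The higher count was 43 without day 3 sibling pool 1, 27 without pool 2 and 45 after quantile normalization.

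Ribosomal protein genes gave a weaker and scale-dependent result. Of 73 tested, 32 were higher, 1 lower and 72 within 2-fold, with a median of 0.28 that became −0.01 after quantile normalization, when 7 were higher and 3 lower. The higher count was 14 without mutant pool 2, 20 without mutant pool 3, and 11 and 7 without day 3 sibling pools 1 and 2. Rpl29 was highest, with 37140, 41850 and 34013 signal units in day 5 mutants, against 23856 and 20650 in day 3 siblings (0.76 ± 0.11, adjusted p = 0.00057), and 40826 in day 5 siblings. The paralogue rpl22l1 was lower (−0.72 ± 0.19), a call lost without either day 3 sibling pool, while rpl22 was higher (0.71 ± 0.11).

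Skin genes were higher in 26 of 54 cases with none lower, a median of 0.44 and 39 within 2-fold, beside a median of 0.35 in day 5 siblings. Annexin anxa2a had 5709, 5259 and 5935 signal units in day 5 mutants, against 1568 and 1430 in day 3 siblings (1.87 ± 0.13, adjusted p = 3.8e-06), and 3089 in day 5 siblings. The keratin gene krt97 was higher by 1.33 ± 0.14 and krt5 by 0.65 ± 0.12. Without day 3 sibling pool 2 the higher count was 17. Of 58 skeletal muscle genes, 26 were higher, 3 lower and 55 within 2-fold. Their median of 0.30 became 0.01 after quantile normalization, with 13 higher, and the higher count was 15 and 9 without day 3 sibling pools 1 and 2. The intermediate filament gene desma led with 1.19 ± 0.13. The mitochondrial creatine kinase gene ckmt2a went the other way, with 1126, 1658 and 2132 in day 5 mutants against 4800 and 3692 in day 3 siblings (−1.37 ± 0.20), while day 5 siblings averaged 6530.

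Several islet hormone genes were higher. Insulin (ins) had 2281, 1941 and 1583 signal units in day 5 mutants, against 813 and 801 in day 3 siblings (1.18 ± 0.15, adjusted p = 0.00019), and 1502 in day 5 siblings. Glucagon (gcga) was higher by 1.11 ± 0.15 and the somatostatin gene sst2 by 1.07 ± 0.19. Pax6b, a transcription factor of islet and eye, was lower (−0.81 ± 0.15), as were neurod1 and isl1a, which the neuronal list also holds. In all, 4 of 12 tested islet genes were higher and 5 lower. Pigment cell genes were higher in 8 of 22 cases and lower in 1. The higher count was 5 without day 3 sibling pool 1 and 4 with pool 2 counted as a day 3 mutant. The melanin synthesis gene dct was higher by 1.06 ± 0.12 and the purine synthesis gene paics by 1.14 ± 0.12. Impdh1b, also of purine synthesis, was lower (−1.22 ± 0.20), and so was it in day 5 siblings (−1.23).

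**Figure D5:**
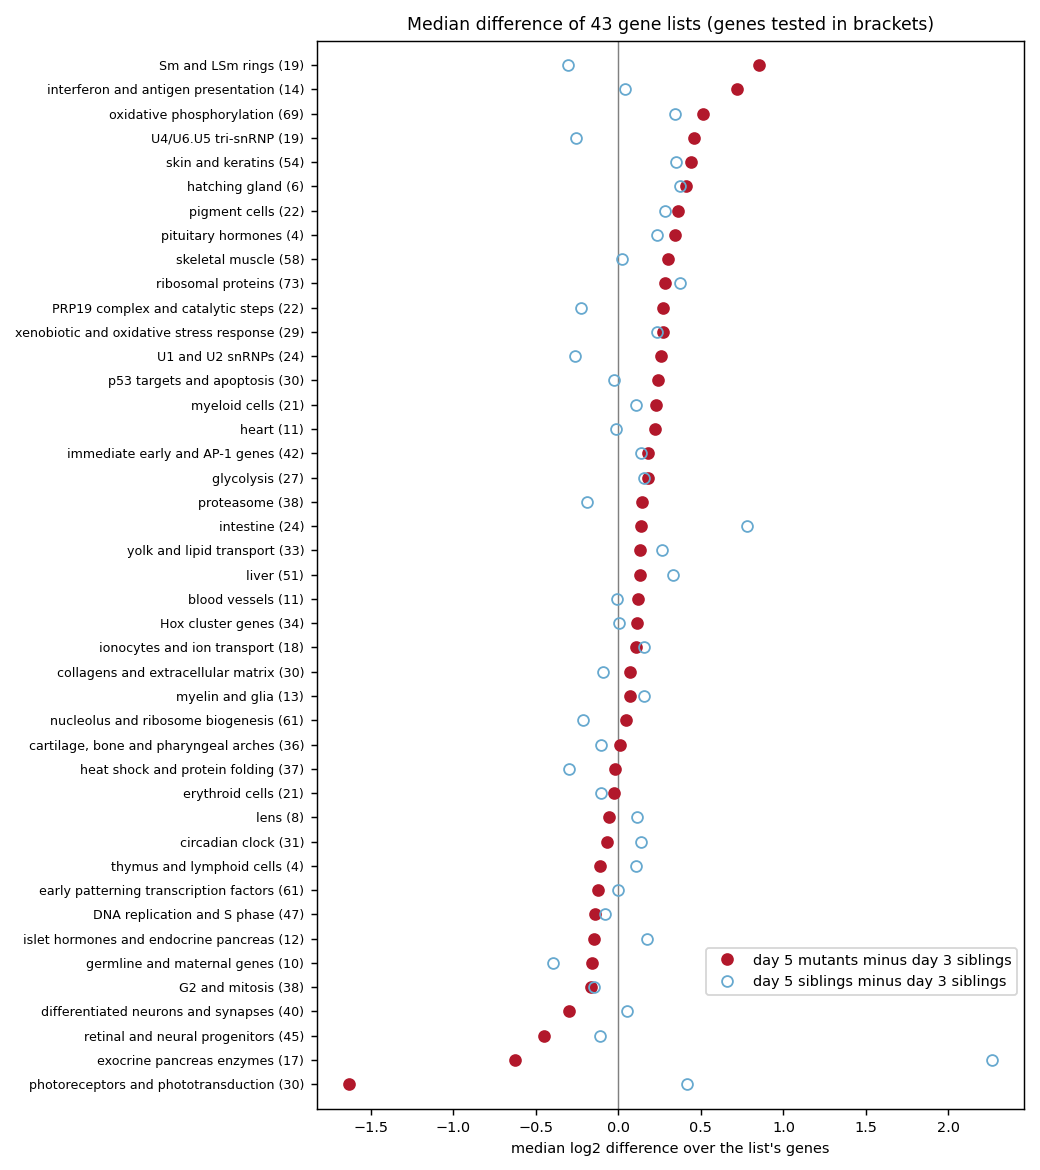
Median log2 difference of the tested genes of 43 lists, for day 5 mutants minus day 3 siblings (filled) and day 5 siblings minus day 3 siblings (open), which share the day 3 pools. The 2 medians lie far apart for exocrine pancreas (−0.63 and 2.27) and photoreceptor genes (−1.63 and 0.42) and close together for skin genes (0.44 and 0.35).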

How the data were processed

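RNA of whole-embryo pools was measured on 10 Affymetrix zebrafish arrays (7 µg of total RNA each). Per the submitters' processing notes, the deposited intensity values are MAS5 signals on a linear scale. All columns matched a sample by the column name, and groups were taken from the sample titles. Of 15617 probe sets, 115 controls were left out. The 2016 platform annotation gave 10795 probe sets 1 symbol, 135 several and 4572 none. The gene IDs of 10711 probe sets matched RefSeq. The 25% of probe sets with the lowest mean signal (under 231.855) were left out, leaving 11626 probe sets and 7287 genes, each by its brightest probe set. Log2(signal + 65), 65 being about 10% of the median signal of 647.8, was fitted with limma 3.58.1 (R 4.3.3; 4 group means, mean-variance trend), with Benjamini-Hochberg adjusted p-values over all tested probe sets. Equivalence used a pair of one-sided tests against a log2 limit of 1. The fit was also run on simulated data with independent noise and a small share of changed probe sets. That setting held no label conflict and no outlying pool, so it checks the code and not the calls made here.

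Named genes were sart3, mdm2, the 15 highest and 15 lowest called genes whose pools did not overlap, 10 genes within 2-fold for each direction of the largest sibling change, and up to 4 called genes a direction plus up to 3 of the brightest others of each of 43 lists; clone names were skipped. Among the named genes, 1 had probe sets called in opposite directions in the main comparison. The members and lists were chosen with earlier results of these data known. Alternatives covered pseudocount, filter, scaling, trend, array weights, a replicate block, the label conflicts and leaving out each pool. Pools are labelled biological replicates, but nothing says that their embryos had different parents, so p-values measure the spread between these pools. Sequences were not used here.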

Additional observations from a re-analysis of the deposited data

How the results depend on the processing

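Among the named genes, the quantile scaling turned rps2 (−0.053), apoa2 (−0.083), actc1b (−0.022) and the ribosomal protein median (−0.012) below 0. Leaving out 1 pool at a time gave 1315 to 3271 called probe sets in day 5 mutants against day 3 siblings, with 592 to 1392 higher and 723 to 1879 lower; the lowest counts were without day 3 sibling pool 2. With that pool counted as a mutant, 988 were called, 413 higher and 575 lower. For the comparisons set beside it, day 5 against day 3 siblings gave 379 to 2387 without 1 pool, 275 with pool 2 counted as a mutant and 3661 with array weights, against 2150. Day 5 mutants against day 5 siblings gave 1048 to 2046 without 1 pool, against 1701. Day 3 mutants against day 3 siblings gave 48 to 398 without 1 pool, 505 with array weights and 0 with pool 2 counted as a mutant, against 240. The cause of these shifts was not tested. Without 1 of the day 3 sibling pools the reference is 1 array, and a call can be lost with little change in the difference. For atp6ap1b the difference was −0.661 without day 3 sibling pool 1 and −0.687 without pool 2, against −0.674. For mbpb it moved more, to 0.236 without pool 2, against 0.425. For the main comparison, deviations of same-numbered pools from their group means correlated at 0.003 and 0.0878. With the replicate block, 3410 probe sets were called, 1452 higher and 1958 lower. Under it 11 DNA replication genes were lower, against 4, and 9 exocrine enzymes, against 4, and 6 liver genes, against 3. The deviations of same-numbered day 5 mutant and day 5 sibling pools correlated at 0.229 to 0.265. Differently numbered pools were not compared in this way. Deviations from a group mean cancel within the group, so covariances of differently numbered day 5 mutant and sibling pools must be negative on average. Whether the numbers pair the pools was not tested. For day 5 mutants against day 5 siblings, the block gave 1854 called probe sets, against 1701. Restricting the fit to the 5 arrays compared gave 2524, and leaving out the 2 pools labelled day 4 gave 2927. Differences of dim genes near the signal limit are understated on the scale used. How their certainty compares with that of brighter genes was not tested.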

Other observations

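Circadian genes keep daily time through interlocked feedback. Of 31 tested, 4 were higher in day 5 mutants than in day 3 siblings, 10 lower and 23 within 2-fold. Of all genes, 14.2% were called in each direction and 84.7% were within 2-fold, so the higher count lay near the background. The light-induced clock gene per2 had 1614, 1462 and 1141 signal units in day 5 mutants, against 4016 and 4822 in day 3 siblings (−1.62 ± 0.16, limma, adjusted p = 4.2e-05), and it was also lower in day 5 siblings (−1.13). Cry3b was at −1.50 ± 0.22 and tefa at −1.01 ± 0.13, beside −1.15 and −0.98 in day 5 siblings. The repressor gene bhlhe41 was higher, by 1.14 ± 0.17 in day 5 mutants and by 1.52 in day 5 siblings. Without day 3 sibling pool 1 or pool 2, 6 clock genes were lower, and 2 and 1 were higher. The hour of collection is known only as the age in hours.

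Of 47 DNA replication genes, 45 were within 2-fold, 2 higher and 4 lower, beside 84.7% of all genes within 2-fold and 14.2% lower. The lower count was 10 without mutant pool 3, 2 without mutant pool 1 or 2, and 0 and 1 without day 3 sibling pools 1 and 2. Of 38 genes of G2 and mitosis, 36 were within 2-fold, none higher and 8 lower. The lower count was 5 without mutant pool 1, mutant pool 2 or day 5 sibling pool 2, 2 without either day 3 sibling pool, 4 after median centring or quantile normalization, and 3 with only the 5 arrays compared. The mitotic motor gene kif4 was past 2-fold, with 410, 484 and 487 signal units in day 5 mutants, against 966 and 1061 in day 3 siblings (−1.04 ± 0.19, adjusted p = 0.0022), and 435 on average in day 5 siblings. All 34 tested Hox genes were within 2-fold, and hoxb6a (0.69 ± 0.16) and hoxc6a (0.39 ± 0.13) were called higher, though neither without day 3 sibling pool 1 or pool 2. Hoxc6a was called under 8 of 22 alternatives. Of 36 cartilage and arch genes, 35 were within 2-fold. Of 8 lens genes, 7 were within 2-fold, and the lens filament gene bfsp2 was lower (−1.04 ± 0.17, adjusted p = 0.00095).

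Bmb, the zebrafish brambleberry gene of pronuclear fusion in the early embryo, had 1168, 1372 and 787 signal units in day 5 mutants, against 136 and 267 in day 3 siblings (2.15 ± 0.31, adjusted p = 0.00042), and 81.8 on average in day 5 siblings. Its lower day 3 sibling signal and its day 5 sibling mean were under the filter limit of 231.9. The day 5 mutant signals alone were enough for bmb to pass that filter. Among myelin genes, mbpa was lower (−0.92 ± 0.17) while mbpb was higher (0.42 ± 0.13), beside 0.43 and 0.51 in day 5 siblings. Mbpb lost its call without mutant pool 3 or day 3 sibling pool 2. The amino acid transporter gene slc38a2 had 626, 843 and 1270 in day 5 mutants, against 4390 and 4508 in day 3 siblings (−2.26 ± 0.21, adjusted p = 2.8e-05).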
